A study of Mus musculus with 4 samples.

Results

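The cytosolic ribosomal protein genes and their paralogs were taken from the deposited gene table by name: every gene symbol that starts with Rpl or Rps and a digit, leaving out the 10 Rps6k kinases, which share only the letters. This gave 89 of the 23980 genes listed. They were 43 canonical genes of the large subunit, 30 canonical genes of the small subunit, 9 paralogs (Rpl10l, Rpl39l, Rpl36al, Rpl3l, Rpl7l1, Rpl22l1, Rps27l, Rps27rt and Rps4l), 6 genes with a -ps name, and Rps19bp1, which encodes a protein that binds Rps19 and is no part of the ribosome. All 89 could be placed on the GRCm38.p6 assembly, and 4 of the 73 canonical genes (Rpl10, Rpl36a, Rpl39 and Rps4x) are on the X chromosome.

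The study asked how loss of Pld6 or of Dnmt3l changes the transcriptome of male germ cells. RNA came from leptotene and zygotene (L/Z) spermatocytes, germ cells that have just entered meiosis, purified by FACS from mice aged 3 to 4 weeks, and polyA(+) RNA was sequenced with a strand-specific kit. The animals were F1 hybrids between C57BL6/J and MSM/Ms, and there were 4 libraries: a Dnmt3L heterozygote, a Pld6 WT, a Dnmt3L KO and a Pld6 KO. The Dnmt3L heterozygote and the Pld6 WT served as controls, so the pair differs in genotype and line. Pld6 encodes a mitochondrial factor of piRNA production, and Dnmt3l encodes a cofactor of the DNA methyltransferases that act in fetal male germ cells. The genes are inactivated in every cell of a KO animal, somatic cells of the testis included. Each KO has 1 library, so no value of a KO has a replicate check.

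Ribosomal proteins assemble with ribosomal RNA into the large (Rpl) and small (Rps) subunits, and a cell needs nearly all of them in equal number. Their mRNAs are among the most abundant of a growing cell, and most begin with a short pyrimidine tract through which mTOR signalling sets their translation. The X chromosome is silenced in male meiosis after the zygotene stage. Several X-linked ribosomal protein genes have an autosomal copy, Rpl10l and Rpl39l among them, which is used in the testis.

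The libraries did not hold equal cell populations by their marker genes. Levels are given as FPKM, fragments scaled to transcript length and library depth, always in the order Dnmt3L heterozygote, Pld6 WT, Dnmt3L KO, Pld6 KO where 4 values stand together. The 19 markers of L/Z spermatocytes had median levels of 89.2, 170.5, 53.0 and 99.6 FPKM, and none was at 0 in any library. The 16 Sertoli cell markers summed to 8882, 268, 11759 and 674 FPKM, high in both Dnmt3L libraries, with none at 0. The 16 spermatid markers summed to 7770, 373, 82.2 and 57.0 FPKM, highest by far in the Dnmt3L heterozygote, with only Smcp at 0 in the KO of Dnmt3l and only Acrv1 in that of Pld6. The median level of 16 pachytene markers was 39.0, 28.2, 2.04 and 1.71 FPKM, with only Acr at 0, in the Pld6 KO. The targeted genes followed the labels: Pld6 was at 0.334 FPKM in the Pld6 KO against 8.55 FPKM or more elsewhere, and Dnmt3l had 0 fragments in the Dnmt3L KO against 20 or more elsewhere. In bulk RNA, fewer cells of a type and less RNA per cell cannot be told apart. Because the Dnmt3L and Pld6 lines differ so much in Sertoli markers, each KO is also compared with the control of its own line.

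The genes on which the paralog results turn are shown first. Rpl39 (chromosome X) and Rpl39l (chromosome 16) encode forms of one of the smallest ribosomal proteins, and their coding sequences in the GENCODE M21 transcripts are 156 bases long with 23 differences, an identity of 85.3%. The coding exons, without the stop codon, lie in chrX:37082704-37085127 on the minus strand and chr16:10174310-10174462 on the plus strand of GRCm38. Capitals mark the bases that differ, which is what lets reads of the pair be told apart; the longest identical run is 38 bases, shorter than the 50-base reads.
Rpl39: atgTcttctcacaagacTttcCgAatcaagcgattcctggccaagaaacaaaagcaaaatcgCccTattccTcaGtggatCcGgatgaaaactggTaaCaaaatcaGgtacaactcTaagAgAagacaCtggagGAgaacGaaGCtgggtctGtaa
Rpl39l: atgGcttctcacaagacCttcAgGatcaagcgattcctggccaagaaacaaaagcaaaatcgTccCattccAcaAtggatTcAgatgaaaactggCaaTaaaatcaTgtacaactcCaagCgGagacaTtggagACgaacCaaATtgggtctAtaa

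Rps27 (chromosome 3) and Rps27rt (chromosome 9) are the opposite case. Their coding sequences, in chr3:90212728-90213615 and chr9:114982456-114982707 without the stop codon, both on the minus strand, are 255 bases long with 0 differences, so that 1 line stands for both. A read that lies within it cannot be assigned to either gene from its sequence.
Rps27 and Rps27rt: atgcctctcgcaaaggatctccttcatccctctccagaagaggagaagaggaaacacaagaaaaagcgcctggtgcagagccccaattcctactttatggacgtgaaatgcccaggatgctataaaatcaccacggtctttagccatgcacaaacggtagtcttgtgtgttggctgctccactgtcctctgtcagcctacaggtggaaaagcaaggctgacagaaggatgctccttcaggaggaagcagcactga

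How much of each transcript can be told from other genes was measured by cutting it into windows of 50 bases, the read length, and asking whether the same 50 bases occur in a GENCODE transcript of another gene. In Rps27, 98.6% of windows occur in Rps27rt, and in Rps27rt, 91.1% occur in Rps27. Rpl39l shared 0% of its windows with another gene and Rpl10l 7.60%. Their X-linked partners shared 16.2% (Rpl39) and 85.4% (Rpl10). Over the 73 canonical genes the median share was 48.5%, and 32 genes were above 50%. Retrotransposed copies of ribosomal protein mRNAs are known to be common in mammalian genomes. How the counting tool divided reads between such copies is not given in the sources used here, and levels of these genes are uncertain to that extent. The estimated counts of 83 genes were whole numbers in all 4 libraries (to within 0.001), and those of Rpl26, Rpl30, Rpl34, Rpl34-ps1, Rps27 and Rps27rt were not.

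Ribosomal protein mRNAs were among the most abundant of the L/Z spermatocytes in every library. The 89 genes held 5.02% of all fragments in the Dnmt3L heterozygote (95% Wilson interval 5.02 to 5.03%, counting error only), 4.50% in the Pld6 WT (4.50 to 4.51%), 3.22% in the Dnmt3L KO (3.22 to 3.23%) and 4.04% in the Pld6 KO (4.03 to 4.05%). The Dnmt3L KO was lowest, and both KO libraries lay below both controls, whose SD was 0.368 percentage points (n = 2). As a share of summed FPKM, which corrects for the short length of these mRNAs, the values were 15.4%, 16.1%, 11.9% and 15.0% in the same order. Among the 100 genes with the highest FPKM, 51 in the Dnmt3L heterozygote, 53 in the Pld6 WT, 45 for the Dnmt3L KO and 48 for the Pld6 KO were ribosomal protein genes.

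The canonical genes were spread over a wide range. Their median level was 1253, 1172, 859 and 990 FPKM, while the median over the 14416 genes with a mean of at least 1 FPKM was between 11.3 and 13.4 FPKM. Between 26 and 46 of the 73 exceeded 1000 FPKM in a library and 69 or 70 exceeded 100 FPKM. Small-subunit genes were listed higher than large-subunit genes, with medians of 1517 and 942 FPKM in the Dnmt3L heterozygote and 1456 and 856 FPKM in the Pld6 WT.

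The 5 highest genes were ranked by mean FPKM, a scale that raises genes with short transcripts. In fragments the order differed. The Dnmt3L heterozygote held 31970 fragments for Rps28 and 18768 for Rpl38, against 97822 for Rps24. Rps28, of the head of the small subunit, was at 3896, 4486, 3230 and 3798 FPKM in the order of libraries given above. Rpl41, whose product is only a short basic peptide, was at 5233, 3496, 3035 and 3256 FPKM. The other three were Rps29 (2529 to 3386 FPKM), Rpl38 (2399 to 3214 FPKM) and Rpl32 (1775 to 2948 FPKM). The highest of the 4 libraries was the Dnmt3L heterozygote for Rpl41, Rps29, Rpl38 and Rpl32 and the Pld6 WT for Rps28.

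A few canonical genes were listed far below the rest. Rpl26 was listed at 0 FPKM in 3 libraries and at 3.75 FPKM in the Pld6 WT (52.1 estimated fragments). Rpl30 was at 15.1, 25.8, 15.7 and 14.0 FPKM and Rpl34 at 20.8, 29.8, 45.2 and 20.9 FPKM. Rpl34-ps1, every window of which occurs in another gene (100%), was listed at 1981, 2010, 1390 and 1424 FPKM. Rpl26, Rpl30 and Rpl34 are 3 of the 6 genes with fractional counts. Rps15a (137, 128, 95.4 and 86.0 FPKM) and Rpl22 (218, 164, 140 and 117 FPKM) were the next lowest in FPKM. In fragments Rps15a was not low, at 43797, 25794, 22313 and 13448. Rpl38, among the highest genes in FPKM, held 18768, 9114, 11240 and 7106 fragments. FPKM divides by transcript length, and the GENCODE transcript taken for Rps15a is 5179 bases long.

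**Figure D1:**
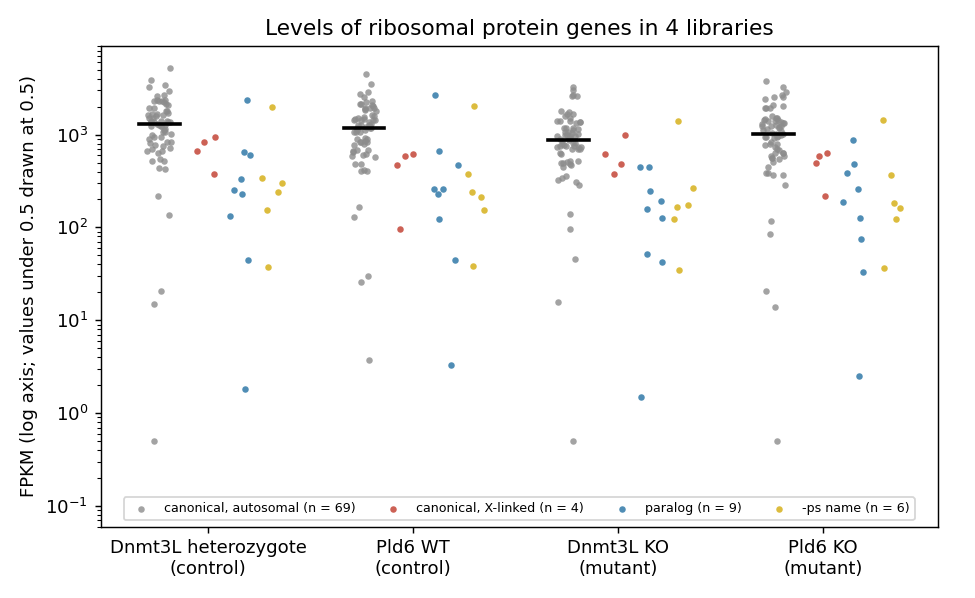
FPKM of the ribosomal protein genes (log axis, 1 point a gene, Rps19bp1 left out) in the 4 libraries, by class, with the median of the autosomal canonical genes as a bar and values under 0.5 drawn at 0.5. That median stood at 1297 FPKM in the Dnmt3L heterozygote, 1189 in the Pld6 WT, 874 for the Dnmt3L KO and 1016 for the Pld6 KO, and a few canonical genes lay far below the rest in each library.

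Against both controls, the ribosomal protein genes were shifted down together in each KO by less than 2-fold. On the scale log2((FPKM + 1)/(mean control FPKM + 1)), the median of the 89 genes was -0.48 for the Dnmt3L KO and -0.33 for the Pld6 KO, where the medians over all 14416 genes were -0.02 and -0.05. The distance between the controls themselves, heterozygote against WT, had a median of 0.12 over the 89 genes. Of the 88 genes with a mean of at least 1 FPKM, 78 (88.6%) were below both controls in the Dnmt3L KO, where 34% of all genes were. In the Pld6 KO, 70 (79.5%) were below both controls, against 32.4% of all genes. Above both controls were 4 genes in the Dnmt3L KO (Rpl34, Rpl39, Rps27 and Rps4x; 35.5% of all genes) and 8 in the Pld6 KO (Rps15, Rps21, Rpl18 and Rpl27a among them; 31% of all genes).

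The same held within each line. In the Dnmt3L KO, 83 of the 88 (94.3%) were below the Dnmt3L heterozygote, with a median of -0.52, where 45.2% of all genes were. In the Pld6 KO, 74 (84.1%) were below the Pld6 WT, with a median of -0.24, against 49.2% of all genes. There were 72 genes below the control of their line in both KOs, and the like share over all genes was not computed. The values of large-subunit genes (medians of -0.60 and -0.21 in the Dnmt3L and the Pld6 line) and of small-subunit genes (-0.50 and -0.24) were of like size, as were those of the 6 genes with a -ps name (-0.43 and -0.35) and the 9 paralogs (-0.51 and -0.42). The 4 X-linked genes had medians of -0.05 and 0.09. The levels of L/Z, spermatid and Sertoli markers differed as well. So did markers of other cells: 9 Leydig cell markers summed to 387, 28.6, 406 and 250 FPKM, 11 peritubular and vascular markers to 609, 145, 325 and 616 FPKM, and 10 macrophage markers to 74.4, 24.2, 139 and 61.7 FPKM, with Cd163 alone at 0, in the Pld6 WT. Of the 14416 genes, 7282 were above the Pld6 WT in the Pld6 KO, and 7802 above the Dnmt3L heterozygote in the Dnmt3L KO. In the Pld6 KO, 9 of 9 Leydig, 11 of 11 peritubular and vascular and 9 of 10 macrophage markers were above the Pld6 WT. In the Dnmt3L KO, 4 of 9, 2 of 11 and 10 of 10 of these markers were above the Dnmt3L heterozygote. The part of these cells in the shifts was not tested.

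Few single genes went beyond 2-fold. In the Dnmt3L KO, 3 of the 89 (Rpl10l, Rpl39l and Rps27rt) were more than 2-fold below both controls, against 5.78% of all 23980 genes, and 0 were more than 2-fold above both, against 2.14%. In the Pld6 KO, 2 (Rpl39l and Rps27rt) were more than 2-fold below, against 5.41%, and 0 above, against 1.04%. The counted members beyond 2-fold were thus no larger a share than of all genes, and none was canonical.

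edgeR's quasi-likelihood test, in which the spread between the controls stands for that of every group, called 0 of the 89 genes at an adjusted p under 0.05 in either KO, and 0% of the 18657 genes tested. At an unadjusted p under 0.05, 1 of the 89 genes was lower in the Dnmt3L KO (7.72% of all genes) and 1 in the Pld6 KO (7.41%), Rps27rt both times, and 0 were higher (1.09% and 0.547%). The smallest adjusted p was 0.106 for the Dnmt3L KO and 0.571 for the Pld6 KO. DESeq2, as an alternative, called Rps27rt of the 89 in the Dnmt3L KO (adjusted p 4.96e-05), against 4.55% of all genes, and 0 in the Pld6 KO, against 4.73%. The test has 1 residual degree of freedom, from controls of unlike genotype, and its p-values measure only the spread between these libraries.

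A fit with line as a term and 1 effect shared by both KOs, chosen after the data were seen, takes its 1 residual degree of freedom from the difference between the KO effects. It called 3 of the 89 genes lower at an adjusted p under 0.05 in edgeR, against 6.32% of all genes, and 0 higher, against 0.959%. They were Rps27rt (log2 change -2.65, adjusted p 0.00912), Rpl39l (-1.25, adjusted p 0.0197) and Rpl10l (-1.08, adjusted p 0.0483), each lower than the control of its line in 2 of 2 lines. The median of the 89 genes in this fit was -0.41 and that of all genes 0.04. No canonical gene was called.

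**Figure D2:**
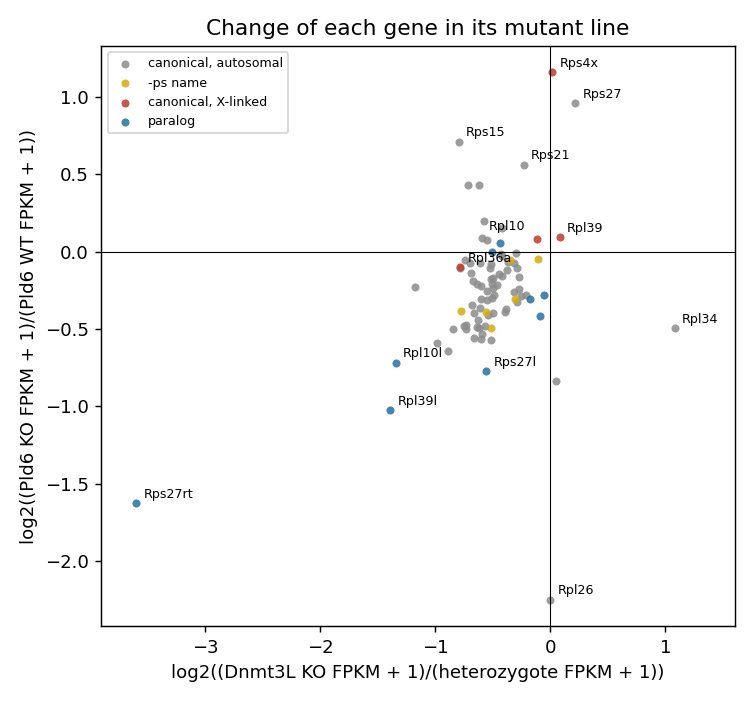
log2 ratio of FPKM + 1 in the Dnmt3L KO against the Dnmt3L heterozygote (horizontal) and in the Pld6 KO against the Pld6 WT (vertical), 1 point a gene, by class. Most genes lie in the lower left part near the medians of -0.52 and -0.24. Further below on both axes lie Rps27rt (-3.60 and -1.62), Rpl39l (-1.39 and -1.03) and Rpl10l (-1.34 and -0.72). On the vertical axis Rpl26 (0 and -2.25) is lowest, and Rps27l (-0.56 and -0.77) lies below Rpl10l. Rps4x (0.02 and 1.16) lies above.

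Among the canonical genes furthest below the controls in the Dnmt3L KO were Rpl36 (1641, 1189, 727 and 1016 FPKM; -0.96 against both controls), Rps7 (1364, 1423, 738 and 911 FPKM; -0.92), Rps24 (2307, 2094, 1167 and 1389 FPKM; -0.91) and Rpl32 (-0.71). Rps7 and Rps24 belong to the small subunit and are needed to process the precursor of its ribosomal RNA, and Rpl36 and Rpl32 are proteins of the large subunit. In each of them both KO libraries lay below both controls, and the Dnmt3L KO was the lower of the pair. In the Pld6 KO the lowest were Rps14 (2616, 2123, 1651 and 1442 FPKM; -0.71), Rpl22 (-0.70), Rps12 (2674, 2112, 1736 and 1498 FPKM; -0.67), Rps24 (-0.66) and Rpl31 (774, 617, 467 and 444 FPKM; -0.64). Of these, Rps14, Rpl22, Rps12 and Rpl31 were lower in the Pld6 KO than in the Dnmt3L KO.

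A small group of canonical genes was listed above both controls in the Pld6 KO and below both in the Dnmt3L KO. Rps15, which takes part in exporting the small subunit from the nucleus, was at 1772, 1562, 1021 and 2554 FPKM, so that the Pld6 KO was 1.44-fold above the higher control and the Dnmt3L KO 1.53-fold below the lower one. Rps21 was at 1952, 1929, 1661 and 2846 FPKM, Rpl18 at 1253, 1058, 761 and 1425 FPKM, and Rpl27a at 1125, 911, 731 and 1229 FPKM. For Rps15, Rps21, Rpl18 and Rpl27a alike, the Pld6 KO was the highest library and the Dnmt3L KO the lowest. The smallest adjusted p of edgeR among them was 0.875, for Rps15 in the Dnmt3L KO. The share of windows found in other genes was 39.0% for Rps15, 26.4% for Rps21, 15.9% for Rpl18 and 35.9% for Rpl27a.

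Rpl10l and Rpl39l, the testis copies of X-linked genes, were the clearest paralogs with reads of their own. Rpl10l lies on chromosome 12 (chr12:66283379-66284401) and encodes a stand-in for Rpl10, a protein at the site where the subunits join. It was listed at 134, 123, 52.2 and 74.3 FPKM. Both KO libraries lay below both controls (128 ± 7.9 FPKM, SD, n = 2), by 2.36-fold (Dnmt3L KO) and 1.65-fold (Pld6 KO) against the lower control. The adjusted p of edgeR was 0.698 for the Dnmt3L KO and 0.966 for the Pld6 KO. Rpl10 itself was at 664, 466, 615 and 493 FPKM, in which the Dnmt3L libraries were higher than the Pld6 libraries and each KO was close to the control of its line.

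Rpl39l was listed at 335, 259, 127 and 127 FPKM. The KO libraries were alike and lay below both controls (297 ± 53.7 FPKM, SD, n = 2), by 2.04-fold each against the lower one (adjusted p in edgeR of 0.731 and 0.773). Rpl39, which lines the exit tunnel of the ribosome, was at 940, 587, 995 and 625 FPKM, again high in both Dnmt3L libraries and low in both Pld6 libraries. The order of the libraries for Rpl39 was that of the summed Sertoli markers. The low values of Rpl10l and Rpl39l came with the low spermatid and pachytene markers of the KOs. Between the controls the spermatid markers summed to 7770 and 373 FPKM, while Rpl10l was at 134 and 123 FPKM and Rpl39l at 335 and 259 FPKM. The part of these cells was not tested.

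As a share of each pair, Rpl10l made up 16.8% of the FPKM of Rpl10 and Rpl10l in the Dnmt3L heterozygote, 20.9% in the Pld6 WT, 7.82% with Dnmt3l and 13.1% with Pld6 knocked out (controls 18.8 ± 2.90%, SD, n = 2). Rpl39l made up 26.3%, 30.6%, 11.3% and 16.8% of its pair (controls 28.4 ± 3.08%). For both pairs the KO libraries were below both controls and the Dnmt3L KO was lowest. In FPKM the X-linked copy was the larger part in every library. In fragments this held for Rpl10 but not for Rpl39. Rpl39l exceeded Rpl39 in the Dnmt3L heterozygote (13099 against 11707) and the Pld6 WT (6350 against 4581). It was below Rpl39 in the Dnmt3L KO (3629 against 9044) and the Pld6 KO (2419 against 3803). Summed, Rpl10 with Rpl10l differed from the control of its line by -0.26 (Dnmt3L KO) and -0.05 (Pld6 KO) on the log2 scale, and Rpl39 with Rpl39l by -0.18 and -0.17. Both sums depended on the scaling: as CPM, fragments scaled to the library total alone, they differed by -0.41 and -0.04 for Rpl10 with Rpl10l and by -0.61 and -0.40 for Rpl39 with Rpl39l.

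**Figure D3:**
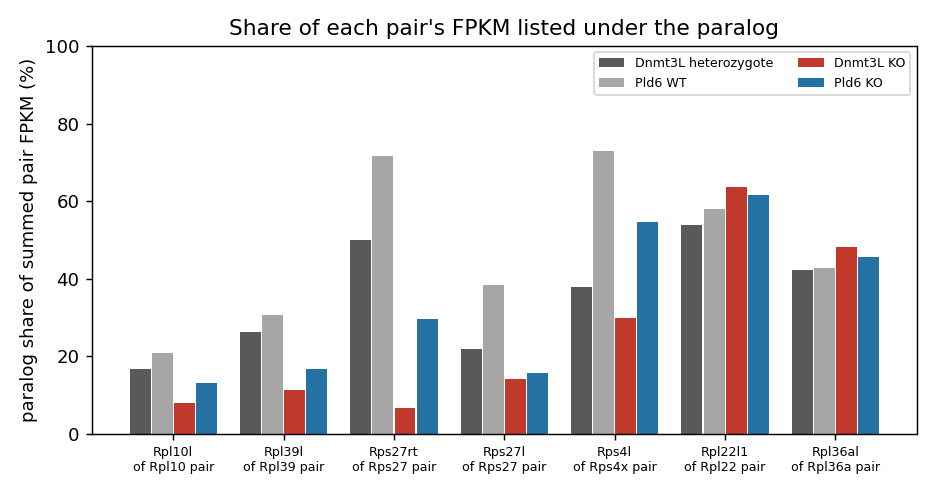
Share of the summed FPKM of each pair that is listed under the paralog (percent, bars from 0), for 7 pairs in the 4 libraries, 1 library a bar and no error bars. Rpl10l and Rpl39l bars are lower in both KO libraries than in both controls (7.82% and 13.1%, and 11.3% and 16.8%), and Rps27rt and Rps4l also differ widely between the controls.

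Rps27rt had the lowest value relative to the controls of all 89 genes in the Dnmt3L KO (-3.70), but most of its 50-base windows (91.1%) occur in Rps27 as well. Rps27 makes a zinc-finger protein of the small subunit. Rps27rt, a retrotransposed copy as its name has it, was listed at 2327, 2685, 191 and 870 FPKM. Both KO libraries were below both controls, by 12.2-fold and 2.67-fold against the lower control. Rps27 was listed at 2319, 1059, 2693 and 2057 FPKM, with the Dnmt3L KO highest and the Pld6 WT lowest.

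The sum of Rps27 and Rps27rt, chosen after these values were seen, was 4647, 3745, 2884 and 2927 FPKM. The KO libraries lay below both controls. Against the mean of the controls they were at -0.54 and -0.52 on the log2 scale, within 2-fold. The medians over the 89 genes were -0.48 and -0.33. As CPM the sum was 683, 542, 398 and 441. The share of the sum listed under Rps27rt was 50.1%, 71.7%, 6.64% and 29.7%. Whether the split between these genes reflects their transcripts or the counting was not tested.

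**Figure D4:**
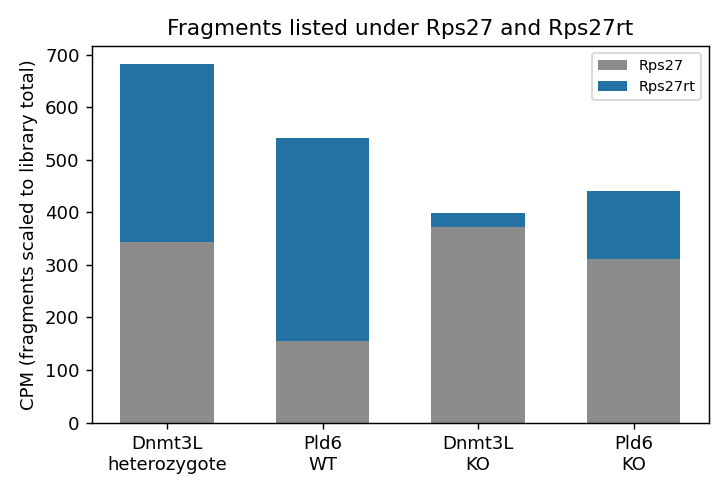
CPM (fragments scaled to the library total) listed under Rps27 (grey) and Rps27rt (blue) in the 4 libraries, stacked from 0. The whole bars stand at 683, 542, 398 and 441, while the blue part is smallest in the Dnmt3L KO.

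The X-linked Rps4x differed between the lines, and its copy Rps4l was lowest in the Dnmt3L KO. Rps4x, a protein of the small subunit, was at 372, 96.0, 376 and 215.5 FPKM. The Dnmt3L libraries were alike, and the Pld6 libraries were below them, with the Pld6 KO above its WT by 1.16 on the log2 scale. The heterozygote exceeded the WT by 1.94 on the log2 scale, the largest distance between the controls among the X-linked genes. The summed Sertoli markers were also higher in the Dnmt3L libraries and higher in the Pld6 KO than in the Pld6 WT, and their part was not tested. Rps4l, which RefSeq types as a transcribed pseudogene, was at 227, 258, 160 and 258 FPKM, with the Pld6 WT and the Pld6 KO equal. Rpl36a, the fourth X-linked gene, was at 822, 622, 478 and 580 FPKM, below both controls in both KOs (-0.59 and -0.31 against their mean), which the other X-linked genes were not.

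None of the other paralogs was more than 2-fold beyond both controls in either KO. In the Pld6 KO, Rps27l (-0.77 against the mean of the controls) was near Rpl10l (-0.78). Rps27l, a p53-responsive relative of Rps27, was at 652, 657, 442 and 384 FPKM, so that the controls were nearly equal and both KO libraries were lower, by 1.47-fold and 1.70-fold. Rpl36al, an autosomal copy of Rpl36a, was at 602, 464, 444 and 484 FPKM, with the Pld6 KO between the controls, and its share of the pair was 42.3%, 42.7%, 48.2% and 45.5%. Rpl22l1, the paralog of the RNA-binding protein Rpl22, was at 254, 227, 244 and 187 FPKM and made up 53.8%, 58.0%, 63.6% and 61.5% of its pair, the highest share among the paralogs in both KOs. Rpl7l1 was at 44.9, 44.7, 42.3 and 33.2 FPKM, 4.59% to 5.26% of its pair with Rpl7. Rpl3l, the form of Rpl3 used in striated muscle, was at 1.80, 3.32, 1.49 and 2.49 FPKM, at most 0.479% of its pair with Rpl3. Rps19bp1 was at 62.4, 48.6, 45.3 and 46.7 FPKM.

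Promoters from RefSeq, 250 bases before to 50 bases after the start on GRCm38.p6, were found for 64 of the 89 genes, 54 of them canonical. The letters CTTTCC, as in the start of many ribosomal protein mRNAs, were searched on the sense strand from 30 bases before to 30 bases after the start, and 11 of the 54 canonical promoters (20.4%) held them, against 3.40% of all 27025. The letters CCGGAAG, the core bound by Ets-family factors, were searched on both strands of the whole window and occurred in 22 canonical promoters (40.7%), against 9.93% of all. GGGCGG, the GC box, occurred on either strand in 32 (59.3%), against 38.2% of all, and TATAAA between 35 and 15 bases before the start in 0, against 2.22% of all. CTTTCC also lay near the start of the paralogs Rpl39l and Rps27rt, and CCGGAAG in the promoters of Rpl39l and Rps27l. A match of letters is a description and names no bound factor.

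The 80 bases around the start, 50 before and 30 after, are shown for the pairs Rpl39 with Rpl39l and Rps27 with Rps27rt, whose members lie on different chromosomes, with a match to CTTTCC or CCGGAAG (or its reverse complement) in capitals. They lie at chrX:37085193-37085272 on the minus strand (Rpl39), chr16:10170178-10170257 on the plus strand (Rpl39l), chr3:90213619-90213698 on the minus strand (Rps27) and chr9:114982710-114982789 on the minus strand (Rps27rt).
Rpl39: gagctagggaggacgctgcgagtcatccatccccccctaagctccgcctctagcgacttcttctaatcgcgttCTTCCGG
Rpl39l: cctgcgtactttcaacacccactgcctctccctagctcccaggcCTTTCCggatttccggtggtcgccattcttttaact
Rps27: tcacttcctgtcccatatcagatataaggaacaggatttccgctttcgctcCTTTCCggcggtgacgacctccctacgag
Rps27rt: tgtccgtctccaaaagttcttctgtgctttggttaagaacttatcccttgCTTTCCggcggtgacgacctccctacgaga

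The other genes of the ribosome and of translation were read from lists chosen with earlier results known. The 7 cytosolic ribosomal protein genes that the name rule leaves out (Rplp0, Rplp1 and Rplp2 of the stalk among them) lay on the same side of the controls. In the Dnmt3L KO 7 of 7 were below both controls and in the Pld6 KO 5, with medians of -0.51 and -0.13 against the control of their line, and 0 were beyond 2-fold. Rplp0 was at 1284, 1176, 953 and 950 FPKM, and Rplp2 at 1917, 1992, 1343 and 2629 FPKM, highest in the Pld6 KO.

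The 40 ribosome biogenesis genes had medians of -0.05 and -0.02 in the same comparisons, and 0 were beyond 2-fold of both controls in either KO. The 17 genes of mTOR signalling and of the control of pyrimidine-tract mRNAs had medians of 0.30 and 0.01, with 0 beyond 2-fold. Of 30 translation factors 2 were more than 2-fold below both controls in each KO, the germ-line poly(A)-binding proteins Pabpc2 (68.5, 40.1, 0.0796 and 0 FPKM) and Pabpc6 (33.8, 20.3, 1.38 and 2.20 FPKM), and 0 above. The 77 mitochondrial ribosomal protein genes had medians of -0.34 and -0.18, with 0 beyond 2-fold in the Dnmt3L KO and 3 below for the Pld6 KO (Mrpl1, Mrpl30 and Mrpl39). Of the Rps6k kinases 1 was beyond 2-fold, Rps6ka2 in the Dnmt3L KO (17.5, 2.12, 46.1 and 4.35 FPKM), high in both Dnmt3L libraries. Over all 23980 genes, 5.78% (Dnmt3L KO) and 5.41% (Pld6 KO) were more than 2-fold below both controls, and 2.14% and 1.04% above.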

How the data were processed

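PolyA(+) RNA of 4 libraries was sequenced by the study as single reads of 50 bases, aligned with TopHat2 and quantified with Cuffdiff per the labels and the study's methods; finer versions are not given in the sources used here. For each gene and library, the deposited table gives an estimated count of fragments that the authors left unscaled. It also gives FPKM, scaled by the authors to transcript length and library depth. The submitters' notes name the build mm10. Columns of scaled fragments and of status were not used.

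Fragments in genes amounted to 63875934 (Dnmt3L heterozygote), 40541149 (Pld6 WT), 49932330 (Dnmt3L KO) and 30439943 (Pld6 KO). Changes were computed on log2(FPKM + 1), which understates the change of low genes, and a gene was counted when FPKM + 1 lay more than 2-fold beyond both controls. Estimated counts, rounded to whole numbers, were tested in edgeR 4.0.16 (R 4.3.3; TMM, filterByExpr, quasi-likelihood, Benjamini-Hochberg over 18657 genes, 1 residual degree of freedom). The script was tested on simulated data. DESeq2 1.42.0, other folds, filters and pseudocounts, CPM and the omission of each control were tried as alternatives, and a fit with line as a term was added later. Genes were placed with RefSeq of GRCm38.p6, and transcripts were those of GENCODE M21.

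Members and lists were chosen with earlier results of these data known. Genes named were the paralogs with their partners, X-linked genes, the 5 highest members and the 5 lowest canonical members, the 5 canonical genes furthest up and down in each KO (mean of at least 1 FPKM), those beyond 2-fold, up to 4 genes of each related list beyond 2-fold, and ribosomal protein genes named otherwise; a few genes that these rules take are not reported here. Others are named where a small count called for it or, as with Rplp0 and Rplp2, as examples.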

Additional observations from a re-analysis of the deposited data

Results flagged for a closer look

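The following genes lay on opposite sides of the control of their line in the Dnmt3L KO and the Pld6 KO. Each genotype had 1 library, so this difference was not tested. The values are the log2 change in the Dnmt3L line minus that in the Pld6 line. It was -1.504 for Rps15, -1.15 for Rpl18, -1.05 for Rpl27a and -0.79 for Rps21, which were lower in the Dnmt3L KO and higher in the Pld6 KO. For Rps4l (-0.51), Rpl36al (-0.50) and Rpl10 (-0.19) the Pld6 line was nearly unmoved, at 0.0005, 0.06 and 0.08. The median of the 4 X-linked genes differed by -0.14. Rpl34 (1.57) and Rpl30 (0.88) went the other way, and both had fractional counts and low levels. In all, 14 of the 89 genes did not have the same sign in both lines. This count includes Rpl26, which had no sign in the Dnmt3L line, at 0 FPKM in both of its libraries. The like share over all genes was not computed.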

How the results depend on the processing

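The medians of the 89 genes were below 0 in each KO under every alternative run. In the Dnmt3L KO the median was -0.57 on CPM, in place of -0.48 in FPKM, and between -0.52 and -0.40 when each control was left out. In the Pld6 KO, in place of -0.33, it was between -0.42 and -0.24 when each control was left out. Counts beyond 2-fold were small and moved with the rule. Lower in the Dnmt3L KO were 10 genes at 1.5-fold (9.16% of all genes), 1 at 3-fold (3.66%), 4 or 5 when a control was left out (5 without the Dnmt3L heterozygote, 8.75%; 4 when the Pld6 WT was omitted, 8.22%; Rpl10l, Rpl39l and Rps27rt each time), and 0 among canonical genes, in place of 3. Lower in the Pld6 KO were 5 at 1.5-fold (Rpl10l, Rpl39l, Rps24, Rps27l and Rps27rt; 8.44%), 0 at 3-fold (3.56%), 1 on CPM (Rps27rt; 5.55%), 0 among canonical genes, 1 with Rps27 and Rps27rt summed (Rpl39l), and 2 or 3 when a control was left out (13.4% and 6.46%), in place of 2. Higher were 1 or 2 in the Dnmt3L KO (Rps27 and Rps4x without the Dnmt3L heterozygote, 12.1%; Rpl34 without the Pld6 WT, 3%) and 0 or 1 in the Pld6 KO (Rps4x without the Dnmt3L heterozygote, 4.69%), in place of 0. The edgeR count in the Dnmt3L KO was 1 with no filter (Rps27rt, adjusted p 0.0384; 2.09% of all genes) and 1 with DESeq2 (4.55%), in place of 0. edgeR without a control has no residual degree of freedom and gave no test. As shares of summed FPKM, the members held 15.4%, 16.1%, 11.9% and 15.0%. With TMM the median of all genes in the Pld6 KO was -0.11 and that of the members -0.40. Of the alternatives for single genes, 83 moved by less than the control spread and 5 by more, for Rpl7l1 and Rps27l. That spread comes from the distance between the controls, which also sets the move when a control is left out. At these distances, values without a control could not move by more than the spread, so the tally does not measure their stability. Rps4x in the Pld6 KO, which went from -0.12 to 1.16, counts among the 83. Values near 0 changed sign, none of them beyond 2-fold of both controls. Without the Dnmt3L heterozygote the Pld6 KO values became 0.08 for Rpl10, 0.09 for Rpl39, 1.16 for Rps4x and 0.06 for Rpl36al. Without the Pld6 WT they became 0.31 for Rpl3l in the Pld6 KO and, in the Dnmt3L KO, -0.11 for Rpl10 and -0.06 for Rpl22l1, which was -0.07 on CPM. The labels give no replicate numbers. No paired test of each KO alone was possible, because a line term with a separate effect for each KO leaves no residual degree of freedom. The fit with line as a term and 1 shared KO effect stands with the edgeR results.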
